A study of Mus musculus with 9 samples.

Results

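The loss of mRNAs after transcription arrest was compared between C2C12 mouse myoblasts given an siRNA against Cugbp1, whose current symbol is Celf1, and C2C12 cells given a control siRNA. The comparison uses 6 of the 9 arrays of the series, 3 with Cugbp1 siRNA and 3 with control siRNA, one for each of 0, 2.5 and 5 h after 5 ug/ml actinomycin D. The other 3 arrays hold cells given an siRNA against Mbnl1 at the same times and are set beside them. All 3 kinds of cells received actinomycin D, and all are the single line C2C12, so the control cells differ from the knockdown cells in the siRNA alone as far as the labels say. Each siRNA and time has 1 array, and nothing in the labels says that arrays come from separate cultures. Of 19938 genes named by a probe set with a single symbol, 9864 passed the filter on dim signal (mean log2 intensity over the 9 arrays of at least 7.38) and were compared.

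CELF1, also called CUG-BP1, is an RNA-binding protein that recognises GU-rich elements in 3′ untranslated regions. It can bring a poly(A)-shortening enzyme to the mRNAs it binds, and in myoblasts it has been tied to the turnover of short-lived mRNAs for signalling and cell cycle proteins. Actinomycin D blocks RNA synthesis, so the signal left after a time, relative to 0 h, follows how fast an mRNA is degraded. RMA, the normalisation behind these values, gives all arrays a common distribution, so the signal left is a share among all transcripts still present and can pass 100% for stable ones.

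The decay difference used throughout is the log2 change from 0 h with Cugbp1 siRNA minus the log2 change from 0 h with control siRNA. A positive value means that more of the 0 h signal was left with Cugbp1 siRNA, and a negative value that less was left. It compares changes over time and not levels, so a gene whose level already differed at 0 h can have a decay difference of 0. For 5 h it was tested with limma in a fit over all 9 arrays with siRNA, time and a straight line in hours for each knockdown. Its standard error (SE) and p-value rest in part on how far siRNA effects leave a straight line in time, with 2 residual degrees of freedom. The other part is a prior variance that limma pools over all genes, and neither part comes from replicate cultures. The prior counts for more degrees of freedom than the residual, so a small SE largely reflects the prior and not the gene alone. The decay difference at 2.5 h is a value with no test. A fit that leaves out a 0 h or 5 h array of these 2 siRNAs extends a change over 2.5 h along the line to 5 h. Its value is such an extrapolation with 1 residual degree of freedom, so its values and counts are not like for like with the full fit.

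Celf1 itself checks the siRNA. Its intensity was 998, 758 and 736 at 0, 2.5 and 5 h with Cugbp1 siRNA, against 3231, 3429.9 and 3399 with control siRNA. The knockdown arrays therefore held 30.9%, 22.1% and 21.6% of the control signal at the 3 times. With Mbnl1 siRNA, Celf1 stood at 72.4%, 65.4% and 61.5% of control, which places the Mbnl1 arrays between the other two kinds. The remaining Celf1 signal also shrank over the arrest. 73.7% of the 0 h signal was left at 5 h with Cugbp1 siRNA and 89.4% with Mbnl1 siRNA, against 105% with control siRNA. Its decay difference was −0.51 ± 0.14 (SE, limma adjusted p = 0.34), and a second, dimmer Celf1 probe set gave −0.19. The value rests on single arrays: it was −0.09 without the 0 h array and −0.94 without the 5 h array of Cugbp1 siRNA, and −0.26 and −0.77 without those of control siRNA. The 6 arrays had median intensities between 104.9 and 109.6 over all probe sets, and the correlation of any 2 of them across probe sets lay between 0.9855 and 0.9954. All 9 of 9 measured myoblast markers passed the filter, with a summed intensity of 29198 to 30388 with Cugbp1 siRNA, against 29688 to 30105 with control siRNA. Of the markers of other cells, 5 of 9 passed for fibroblasts, 2 of 11 for macrophages and leukocytes (Cd14 and Cd68), 2 of 8 for adipocytes and 2 of 7 for osteoblasts and chondrocytes.

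No single mRNA had a decay difference that passed the test over all genes, but most differences leaned the same way, towards more signal left with Cugbp1 siRNA. Setting array medians equal takes out such a shared lean by construction, so it cannot be told apart from array scaling. At an adjusted p under 0.05, 0 of 9864 genes were called (0%), with a smallest adjusted p of 0.32. At an unadjusted p under 0.05 there were 1129 genes (11.4%), of which 877 (8.89% of those tested) had more signal left with Cugbp1 siRNA and 252 (2.55%) had less. Differences were small: 62 genes (0.629%) lay above 0.5, 16 (0.162%) lay below −0.5 and 1 gene, the histone gene H4c4, lay beyond 1 in either direction (0.0101%). Over all genes 6431 decay differences (65.2%) were above 0 and the median was 0.05. At 2.5 h, 61.4% were above 0, with 8 genes above 0.5 (0.0811%) and 9 below −0.5 (0.0912%).

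The lean of the whole distribution depends on how the arrays are scaled to each other. The median log2 of the genes compared was 9.65, 9.58 and 9.55 at 0, 2.5 and 5 h with Cugbp1 siRNA, against 9.67, 9.56 and 9.50 with control siRNA. Setting these medians equal moved each 5 h decay difference by −0.06 and turned the median to −0.02. At an unadjusted p under 0.05 it gave 399 genes higher and 552 lower, so that 42.0% were higher in place of 77.7%. That setting takes out a shift shared by all genes by construction, so it could not have kept the lean. Setting the medians of cytosolic ribosomal protein genes equal moved each by 0.01 and gave 902 higher and 197 lower (82.1% higher). A positive decay difference under 0.06 therefore has no settled sign. Leaving out the 0 h or 5 h array of either siRNA lowered the 877 to 386 (Cugbp1 siRNA, 0 h), 328 (Cugbp1 siRNA, 5 h), 366 (control siRNA, 0 h) and 352 (control siRNA, 5 h), and the 252 to 109 and 125 without the 0 h array of Cugbp1 siRNA or of control siRNA.

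Among the mRNAs lost fastest a larger share had more signal left with Cugbp1 siRNA than among all genes. To keep the choice apart from the arrays compared, fast-decaying mRNAs were taken as those with a log2 change of −1 or less over 5 h with Mbnl1 siRNA, which gave 622 genes. A median of 44.9% of their 0 h signal was left at 5 h with Cugbp1 siRNA and 40.7% with Mbnl1 siRNA, against 40.5% with control siRNA. Of the 622, 490 (78.8%) had a decay difference above 0, beside 65.2% of all genes, and 157 (25.2%) were higher at an unadjusted p under 0.05, beside 8.89%. Only 10 (1.61%) were lower, beside 2.55%. Their median decay difference was 0.14 at 5 h, of which 0.06 was present by 2.5 h and 0.07 arose between 2.5 and 5 h. Grouped by the fall with Mbnl1 siRNA, the median 5 h difference was 0.17 for the 45 mRNAs that changed by −2 or less, 0.14 for the 577 between −2 and −1, 0.09 for the 1086 between −1 and −0.5, 0.05 for the 3088 between −0.5 and 0, 0.03 for the 4981 between 0 and 0.5, and again 0.05 for the 87 above 0.5.

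This median of the fast-decaying mRNAs rests on single arrays. Without the 5 h array of Cugbp1 siRNA, where the change from 0 to 2.5 h is extended to 5 h, it was 0.068. That is 0.019 above the median of all genes, against 0.137 and 0.090 above it with all arrays. Without the 0 h array of Cugbp1 siRNA, where the change from 2.5 to 5 h is extended, it was 0.208, or 0.165 above the median of all genes. With equal array medians it was 0.073. That scaling moves each decay difference by the same amount, so the excess of 0.090 over all genes could not change. Of the 622, 270 had a mean log2 of 9 or more, with a median of 0.12, and 352 were dimmer, with a median of 0.15; the part of dim signal in the result was not tested. The level of these mRNAs with Cugbp1 siRNA minus control siRNA had a median of −0.04 at 0 h, 0.01 at 2.5 h and 0.11 at 5 h.

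**Figure D1:**
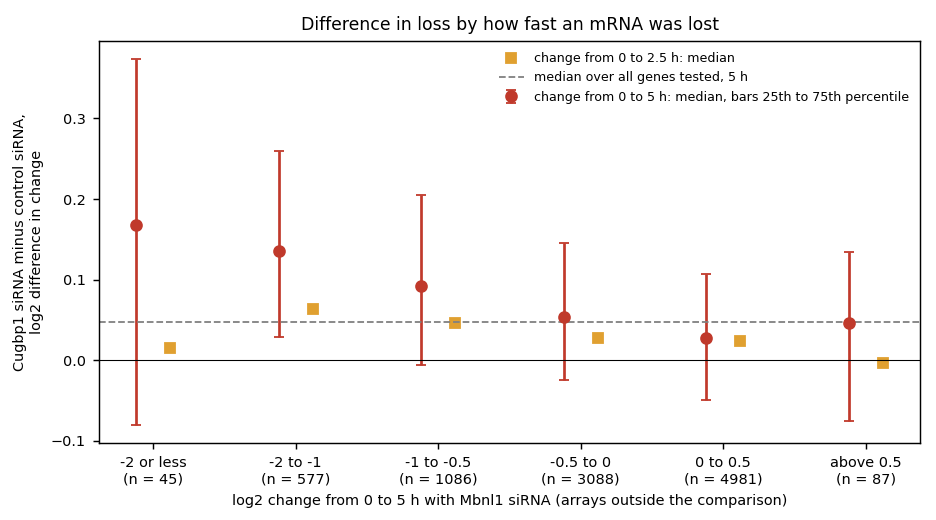
Median decay difference (Cugbp1 siRNA minus control siRNA, log2) of the genes compared, grouped on the x axis by their log2 change from 0 to 5 h in the Mbnl1 siRNA arrays; circles are the 5 h difference with bars from the 25th to the 75th percentile of genes, squares the 2.5 h difference, and the dashed line the median of all genes at 5 h (0.05). The circle stands at 0.17 for the 45 fastest mRNAs and at 0.03 for the 4981 that changed by 0 to 0.5, with bars that overlap throughout.

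Replication-dependent histone mRNAs went against this lean in part. They carry a stem-loop in place of a poly(A) tail and are degraded within a short time when DNA synthesis or transcription stops. Of 31 measured histone genes 16 passed the filter. With control siRNA 12 of the 16 fell by over 1 on the log2 scale in 5 h, all but H1f2, H2ac1, H2bc4 and H4c9. The median decay difference of the 16 was 0.00. At an unadjusted p under 0.05, 6 were lower and 3 higher (37.5% and 18.8% of 16, beside 2.55% and 8.89% of all genes). H2ac1 is among the 6, and H1f2 and H2bc4 are among the 3. Differences between histone types were not tested, and members of each type lay on both sides of 0. Of the 5 genes for the core histone H4, 4 were lower at that threshold, with a median of −0.50 over the 5. Of 3 H2A genes 2 were lower, of 5 H2B genes 2 were higher, and of 3 genes for the linker histone H1 1 was higher. Histone genes of 1 type have almost the same sequence and their probes can cross-hybridise, so these genes are not independent readings and the value of 1 gene is uncertain.

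The largest decay difference of the comparison belonged to H4c4, an H4 gene on chromosome 13. Its intensity was 13671, 2202 and 1360.2 at 0, 2.5 and 5 h with Cugbp1 siRNA, against 15162, 4981 and 3969.6 with control siRNA. The levels were close before the arrest and apart at both later times, with 9.95% of the signal left at 5 h with Cugbp1 siRNA and 26.6% with Mbnl1 siRNA, against 26.2% with control siRNA. The decay difference was −1.40 ± 0.17 (SE, limma adjusted p = 0.32), and −1.03 of it was present at 2.5 h. It stayed negative when each array was left out in turn, between −1.94 and −0.85, the 2 ends being the fits without the 5 h and the 0 h array of Cugbp1 siRNA.

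H4c6, a second H4 gene of the chromosome 13 cluster, had the next lowest value. Its intensity was 2412, 304 and 243 with Cugbp1 siRNA, against 2193, 429 and 373 with control siRNA. Cells with Cugbp1 siRNA thus began higher and ended lower, with 10.1% left at 5 h and 22.1% with Mbnl1 siRNA, against 17% with control siRNA. The decay difference was −0.76 ± 0.15 (adjusted p = 0.32), and −0.30 without the 0 h array of Cugbp1 siRNA. H4c14 on chromosome 3 (−0.50 ± 0.21) and H4f16 on chromosome 6 (−0.47 ± 0.14) lay on the same side, as did the H2A genes H2ac1 (−0.36 ± 0.11) and H2ac15 (−0.34 ± 0.10). The remaining H4 gene, H4c9, stood at 0.17.

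The 3 higher histone genes encode linker histone H1 and H2B. H1f2 encodes a linker histone H1, which binds the DNA between nucleosomes. Its intensity was 2431.5, 2209 and 2121 with Cugbp1 siRNA, against 1761, 1305 and 1013 with control siRNA. It was higher with Cugbp1 siRNA at every time and the gap widened, so that 87.2% was left at 5 h with Cugbp1 siRNA and 64.7% with Mbnl1 siRNA, against 57.5% with control siRNA. Its decay difference of 0.60 ± 0.08 (adjusted p = 0.32) had the highest moderated t of all genes. H2bc18 had a difference of 0.56 ± 0.19, with 15% left with Cugbp1 siRNA and 24.8% with Mbnl1 siRNA, against 10.2% with control siRNA. Its difference at 2.5 h was −0.05, so the value came from the 5 h arrays. There its intensity was 222 with Cugbp1 siRNA and 164.5 with control siRNA, the second under the filter value of 167. H2bc4 had 114% left with Cugbp1 siRNA, against 97.7% with control siRNA (0.22 ± 0.08), on a level already 1.54 higher on the log2 scale at 0 h. For H2bc3 the 5 h intensities, 103 with Cugbp1 siRNA and 104 with control siRNA, were under the filter value of 167 and near the array medians, so its share left cannot be compared.

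**Figure D2:**
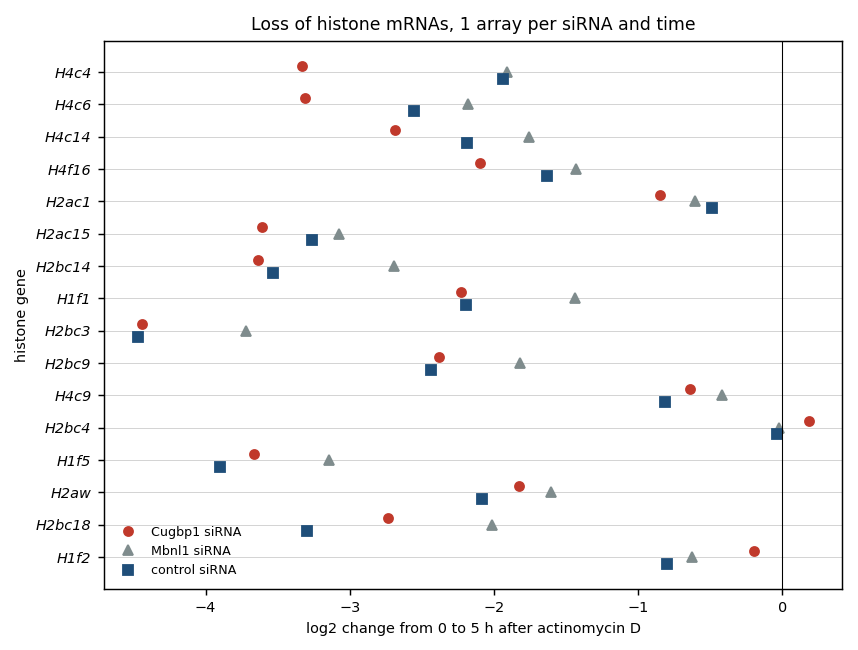
Log2 change from 0 to 5 h after actinomycin D of the 16 histone genes that passed the filter, 1 symbol per siRNA and gene and 1 array behind each time, ordered from the lowest decay difference at the top to the highest at the bottom. Circles (Cugbp1 siRNA) lie left of squares (control siRNA) for the H4 genes H4c4, H4c6, H4c14 and H4f16, and right of them for H2bc18 and H1f2.

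Slbp, whose protein binds the histone stem-loop and is needed for the processing, translation and decay of these mRNAs, had an intensity of 692, 550.0 and 467 with Cugbp1 siRNA, against 1259, 1050.4 and 896 with control siRNA. With Mbnl1 siRNA it was 879.6, 792 and 679.7, and H4c4 kept 26.6% there, against 26.2% with control siRNA. The Slbp level was thus lower than control with both knockdowns at every time, while its decay difference with Cugbp1 siRNA was −0.08 ± 0.09. The 16 factors of histone mRNA processing had a median decay difference of 0.03, and 0 of them were higher and 0 lower at an unadjusted p under 0.05. The part of the lower Slbp level in the histone values was not tested.

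Outside the histones, the lowest moderated t belonged to Plk1, the polo-like kinase that drives entry into and passage through mitosis. Its intensity was 3388, 2298 and 1391 with Cugbp1 siRNA, against 4369.8, 3759 and 2811 with control siRNA. It was lower with Cugbp1 siRNA at each time and the gap grew at each step, with 41.1% left at 5 h and 67.8% with Mbnl1 siRNA, against 64.3% with control siRNA. The decay difference was −0.65 ± 0.08 (adjusted p = 0.32), between −0.72 and −0.58 with each array left out in turn. Over the 51 genes for cyclins, mitosis and the kinetochore, only Plk1 was lower at an unadjusted p under 0.05 (1.96%, beside 2.55% of all genes). Another 6 were higher (11.8%, beside 8.89% of all genes), among them Fam83d, a spindle protein (0.51 ± 0.10), Ttk, the spindle checkpoint kinase (0.36 ± 0.10), and Aurka, the kinase that activates Plk1 (0.30 ± 0.08). The list's median was 0.07.

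Ehd4 and Iars were nearly stable in control cells and not in the knockdown. Ehd4 encodes an ATPase of endocytic recycling, and its intensity was 2287, 1779 and 1538 with Cugbp1 siRNA, against 3525, 3486 and 3422 with control siRNA. At 5 h 67.2% was left with Cugbp1 siRNA and 98.4% with Mbnl1 siRNA, against 97.1% with control siRNA, a decay difference of −0.53 ± 0.09. Iars, the cytosolic isoleucyl-tRNA synthetase, had an intensity of 3845, 3078 and 2419 with Cugbp1 siRNA, against 5072, 4984.5 and 4549 with control siRNA. There 62.9% was left with Cugbp1 siRNA and 91% with Mbnl1 siRNA, against 89.7% with control siRNA, a difference of −0.51 ± 0.09, and a second Iars probe set gave −0.42. Both were lower with Cugbp1 siRNA at 0 h already, and in both the Mbnl1 siRNA arrays stood beside control. Plk1, Ehd4, Iars and H1f2 passed an adjusted p under 0.05 when the prior variance was given an intensity trend and fitted robustly (0.00767, 0.027, 0.0189 and 0.0189), and Plk1, H4c4 and H1f2 did so when only the 4884 brightest genes were tested (0.0408 each); in the other alternatives none of these 5 passed.

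The remaining genes with the lowest moderated t were dimmer and came from different pathways. They were Tesc, a calcium-binding protein (−0.64 ± 0.11), Nxpe3 (−0.45 ± 0.08), the F-box gene Fbxo34 (−0.48 ± 0.09), the myosin light chain gene Myl1 (−0.63 ± 0.11), the chemokine Cxcl13 (−0.60 ± 0.11) and the Wnt ligand Wnt5b (−0.47 ± 0.09), each with a limma adjusted p of 0.32. All 6 had a higher level with Cugbp1 siRNA than with control siRNA at 0 h and a lower one at 5 h. Tesc, for example, stood at 239, 221 and 221 with Cugbp1 siRNA, against 171, 219 and 246 with control siRNA. Its array values met at 2.5 h, so the difference came mostly from the 0 h arrays. Without the 0 h array of Cugbp1 siRNA it was −0.37 for Tesc, without the 0 h array of control siRNA −0.32 for Myl1, and without the 5 h array of Cugbp1 siRNA −0.33 for Cxcl13.

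**Figure D3:**
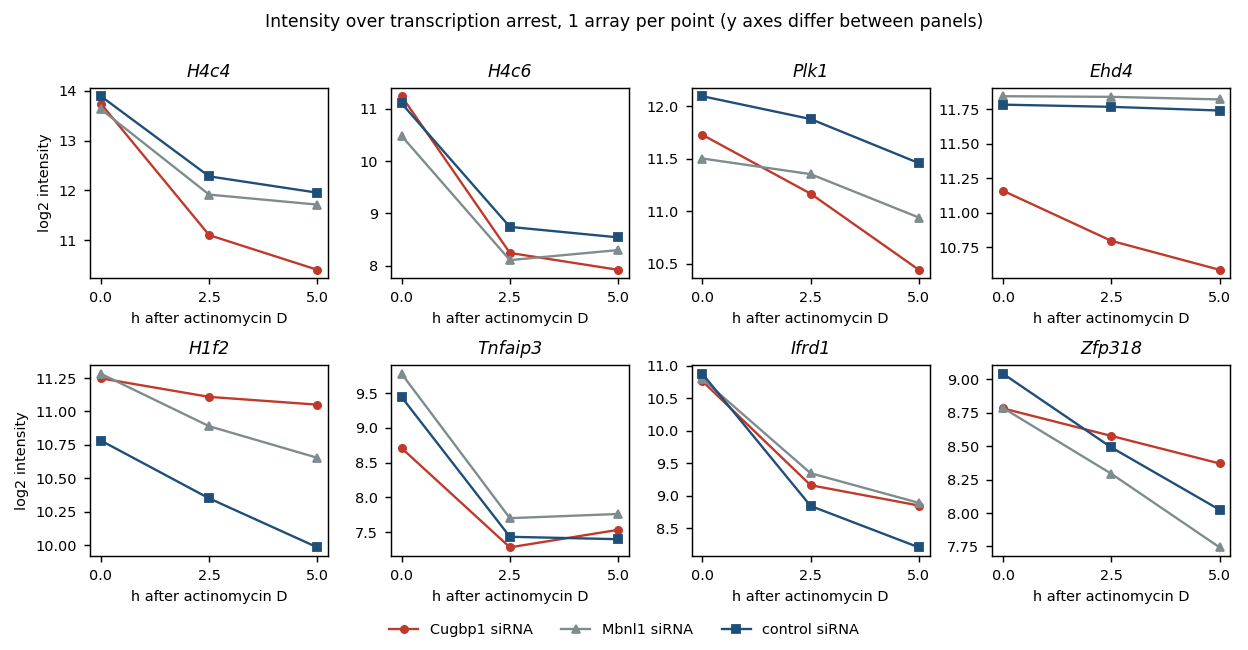
Log2 intensity at 0, 2.5 and 5 h after actinomycin D of 8 genes with low (top row) or high (bottom row) decay differences, with Cugbp1 siRNA as circles, Mbnl1 siRNA as triangles and control siRNA as squares, each point 1 array; y axes differ between panels. The log2 level of Tnfaip3 with Cugbp1 siRNA minus control siRNA is −0.73 at 0 h and 0.13 at 5 h; for H4c4 the gap is −0.15 at 0 h and widens at each later time.

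Short-lived regulatory mRNAs were among those with the largest positive differences. Tnfaip3 encodes A20, a ubiquitin-editing inhibitor of NF-kappaB signalling, and its intensity was 418, 156 and 185 with Cugbp1 siRNA, against 695, 173 and 169 with control siRNA. At 5 h 44.3% was left with Cugbp1 siRNA and 24.7% with Mbnl1 siRNA, against 24.3% with control siRNA, which gave the highest decay difference of the comparison (0.87 ± 0.13, adjusted p = 0.32). It was 0.49 without the 0 h array of Cugbp1 siRNA and between 0.80 and 1.25 without any other single array. The levels were apart at 0 h and nearly met afterwards, close to the filter value of 167. Ifrd1, a transcriptional coregulator of muscle regeneration, showed the other form. Its intensity was 1742, 573.5 and 462 with Cugbp1 siRNA, against 1883.5, 459.7 and 295.5 with control siRNA, so levels were close at 0 h and apart at 5 h (0.76 ± 0.12). The Mbnl1 siRNA arrays did not stand with control for Ifrd1, with 26.7% left, beside 26.5% with Cugbp1 siRNA and 15.7% with control siRNA.

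The other genes with the highest moderated t were the zinc finger genes Zfp869 (0.69 ± 0.10), Zfp318 (0.61 ± 0.09) and Zfp638 (0.51 ± 0.08), the zinc finger and BTB gene Zbtb1 (0.55 ± 0.08), the splicing factor Yju2 (0.59 ± 0.09), Tfam, which packages and transcribes mitochondrial DNA (0.55 ± 0.08), and Armcx4 (0.51 ± 0.08). Zfp869 was near or under the filter value of 167 at both later times with either siRNA. Armcx4 ended at 182 with Cugbp1 siRNA and 155 with control siRNA. The log2 level with Cugbp1 siRNA minus control siRNA was −0.66 at 0 h and 0.03 at 5 h for Zfp869. For Tfam it was −0.51 and 0.04, so both gaps lay at 0 h. Zfp318 stood at 440.3, 382 and 331 with Cugbp1 siRNA, against 527, 359.7 and 260.4 with control siRNA, and the curves crossed. Among the fast-decaying mRNAs the 5 highest were Zfp318, Zbtb1, Tnfaip3, Ifrd1 and Dnttip2, a nucleolar protein gene (0.60 ± 0.10). The 5 lowest were H4c4, H4c6, H2ac15, Zfp74 (−0.34 ± 0.08) and the kinase gene Stk17b (−0.31 ± 0.08). Of 345 measured zinc finger genes with a Zfp symbol 166 passed the filter, with a median of 0.10. At an unadjusted p under 0.05, 33 were higher (19.9%, beside 8.89% of all genes) and 3 lower (1.81%, beside 2.55%). A median of 75.7% of their signal was left at 5 h with Cugbp1 siRNA and 67.8% with Mbnl1 siRNA, against 69.7% with control siRNA. That loss with Mbnl1 siRNA falls in the group of 1086 mRNAs with a log2 change between −1 and −0.5. In that group 17% were higher, with a median of 0.09.

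Feedback inhibitors of MAP kinase signalling had the highest median of the lists examined. The dual-specificity phosphatases (Dusp) switch MAP kinases off, and the Sprouty proteins (Spry) dampen receptor signalling upstream. Of 18 measured genes 16 passed the filter and 14 had a decay difference above 0. At an unadjusted p under 0.05, 6 were higher and 0 lower. The share higher was 37.5%, beside 8.89% of all genes and 25.2% of the 622 fast-decaying mRNAs. The median was 0.17, with 36.4% left at 5 h with Cugbp1 siRNA and 32.8% with Mbnl1 siRNA, against 30.1% with control siRNA. These 6, and the other list genes named from here on, were picked for that threshold after their values were seen. Spry1 stood at 434, 194 and 198 with Cugbp1 siRNA, against 568, 199.6 and 177 with control siRNA (0.55 ± 0.13). The others were Spry2 (0.49 ± 0.19), Dusp8 (0.49 ± 0.10), Dusp4 (0.37 ± 0.09), Dusp5 (0.37 ± 0.13) and Dusp16 (0.26 ± 0.10). Dusp1, the fastest of the list, had 9.67% left with Cugbp1 siRNA and 8.29% with control siRNA (0.22 ± 0.17). For all 6 the level at 0 h was lower with Cugbp1 siRNA.

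Immediate-early and stress-response genes were examined next. Of 30 AP-1, Egr, Ier and Klf response genes 6 were higher (20%, beside 8.89% of all genes) and 1 lower (3.33%, beside 2.55%). Their median was 0.08 beside 0.05 for all genes. Their median log2 change over 5 h with Mbnl1 siRNA was −1.02, within the range of the fast-decaying mRNAs. Of those 622, 25.2% were higher, with a median of 0.14, so this list did not exceed them. Ccn1, a secreted matricellular protein and target of YAP, stood at 2341, 349.9 and 383 with Cugbp1 siRNA, against 3554, 463 and 365 with control siRNA (0.67 ± 0.22). It began lower with Cugbp1 siRNA and was level with control at 5 h, with 16.3% left and 15.1% with Mbnl1 siRNA, against 10.3% with control siRNA. Ier3, an early-response survival gene, had a difference of 0.70 ± 0.21 at signals near or under the filter value at the later times. The stress-induced factor Atf3 (0.36 ± 0.08) and the AP-1 subunits Fosl2 (0.35 ± 0.09) and Fosl1 (0.27 ± 0.11) lay on the same side, and the Krüppel-like factor Klf2 on the other (−0.27 ± 0.08). YAP and TAZ target genes, which include Ccn1 and Ccn2, had 4 of 20 higher (20%, beside 8.89%) and 0 lower and a median of 0.13. Ccn1 and Ccn2 are among the higher genes and among the 622 fast-decaying mRNAs. The median log2 change of the YAP and TAZ list with Mbnl1 siRNA was −0.21. Fos, with a mean log2 of 6.33, was not tested.

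Targets of p53 and genes of the circadian clock were set beside all genes. Of 24 p53 targets 6 were higher (25%, beside 8.89% of all genes) and 0 lower, 17 (70.8%, beside 65.2%) had a decay difference above 0, and the median was 0.09 beside 0.05. Plk2, a polo-like kinase induced by stress, stood at 1065, 268 and 332 with Cugbp1 siRNA, against 1235, 258 and 227 with control siRNA, so 31.2% was left at 5 h with Cugbp1 siRNA and 17.9% with Mbnl1 siRNA, against 18.4% with control siRNA (0.76 ± 0.17). The difference was 0.27 at 2.5 h, so most of it arose afterwards. Plk2 and others of the 6 belong to the 622 fast-decaying mRNAs, of which 25.2% were higher. The rest of the 6 do not, and the median log2 change of the p53 list with Mbnl1 siRNA was −0.44. Of 12 clock genes 3 were higher (25%, beside 8.89%) and 0 lower around a median of 0.12. Their median log2 change with Mbnl1 siRNA was −0.52. In the group of mRNAs between −1 and −0.5, 17% were higher, with a median of 0.09. The 3 were the haem-binding repressor Nr1d1 (0.66 ± 0.20), Bhlhe40 (0.46 ± 0.13) and the repressor Cry1 (0.34 ± 0.12). Heat shock genes had 17 of 19 differences above 0 (89.5%, beside 65.2% of all genes). Only Dnajb1, a co-chaperone with a short-lived mRNA, was higher at an unadjusted p under 0.05 (0.57 ± 0.13). That is 5.26%, beside 8.89%.

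Genes that carry out mRNA decay were themselves examined, since their own mRNAs also turn over. Of 20 genes of deadenylation 3 were higher (15%, beside 8.89% of all genes) and 0 lower, and the median was 0.11. The 3 were Btg2 (0.48 ± 0.16) and Tob1 (0.39 ± 0.10), both adaptors of the CCR4-NOT deadenylase, and Noct (0.37 ± 0.08), a relative of the CCR4 enzymes. Btg2 and Tob1 belong to the fast-decaying mRNAs, of which 25.2% were higher. The median log2 change of the deadenylation list with Mbnl1 siRNA was −0.29. Of 29 decapping and 5′ decay genes 3 were higher (10.3%) and 0 lower around a median of 0.08. Of 18 exosome genes 2 were higher (11.1%) and 1 lower (5.56%), and their median was 0.07; the shares of both groups lie near those of all genes. Xrn1, the 5′ to 3′ exonuclease of the cytoplasm, stood at 653, 716 and 687 with Cugbp1 siRNA, against 447, 426 and 412 with control siRNA. Its level was higher at every time and its decay difference was 0.19 ± 0.10 (adjusted p = 0.515). The decapping enzyme gene Dcp2 had −0.09 ± 0.15, and the sign turned without the 0 h array of either siRNA.

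mRNAs that studies of this protein have reported as bound or destabilised by it, or as carriers of its GU-rich element, were higher at about the share of all genes. Of 14 measured genes 12 passed the filter, and 10 of those had a decay difference above 0 (83.3%, beside 65.2% of all genes). At an unadjusted p under 0.05, 1 was higher and 0 lower (8.33%, beside 8.89% of all genes), with a median of 0.09 beside 0.05. Their median log2 change over 5 h with Mbnl1 siRNA was −0.82. In the group of mRNAs between −1 and −0.5, 17% were higher, with a median of 0.09. The 1 was Smad7, an inhibitor of TGF-beta signalling (0.23 ± 0.09). Myc, the growth-promoting transcription factor, stood at 2078, 352 and 398 with Cugbp1 siRNA, against 2083, 341.5 and 332 with control siRNA. The levels were equal at 0 h and 19.2% was left at 5 h with Cugbp1 siRNA and 23.8% with Mbnl1 siRNA, against 15.9% with control siRNA (0.27 ± 0.15, adjusted p = 0.537). Its sign turned to −0.08 without the 5 h array of Cugbp1 siRNA. Jun, an AP-1 subunit, stood at 2446, 623 and 853 with Cugbp1 siRNA, against 2519, 649.9 and 800.1 with control siRNA (0.13 ± 0.18), and likewise turned to −0.29. The G1 cyclin gene Ccnd1 had −0.01 ± 0.08 and the myogenic factor gene Myod1 0.01 ± 0.08. The signal recognition particle guides secreted proteins to the endoplasmic reticulum. Of its 7 genes only Srp9 was higher at an unadjusted p under 0.05 (0.23 ± 0.08), and 0 were lower. That is 14.3%, beside 8.89% of all genes, and the median of the 7 was 0.10.

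**Figure D4:**
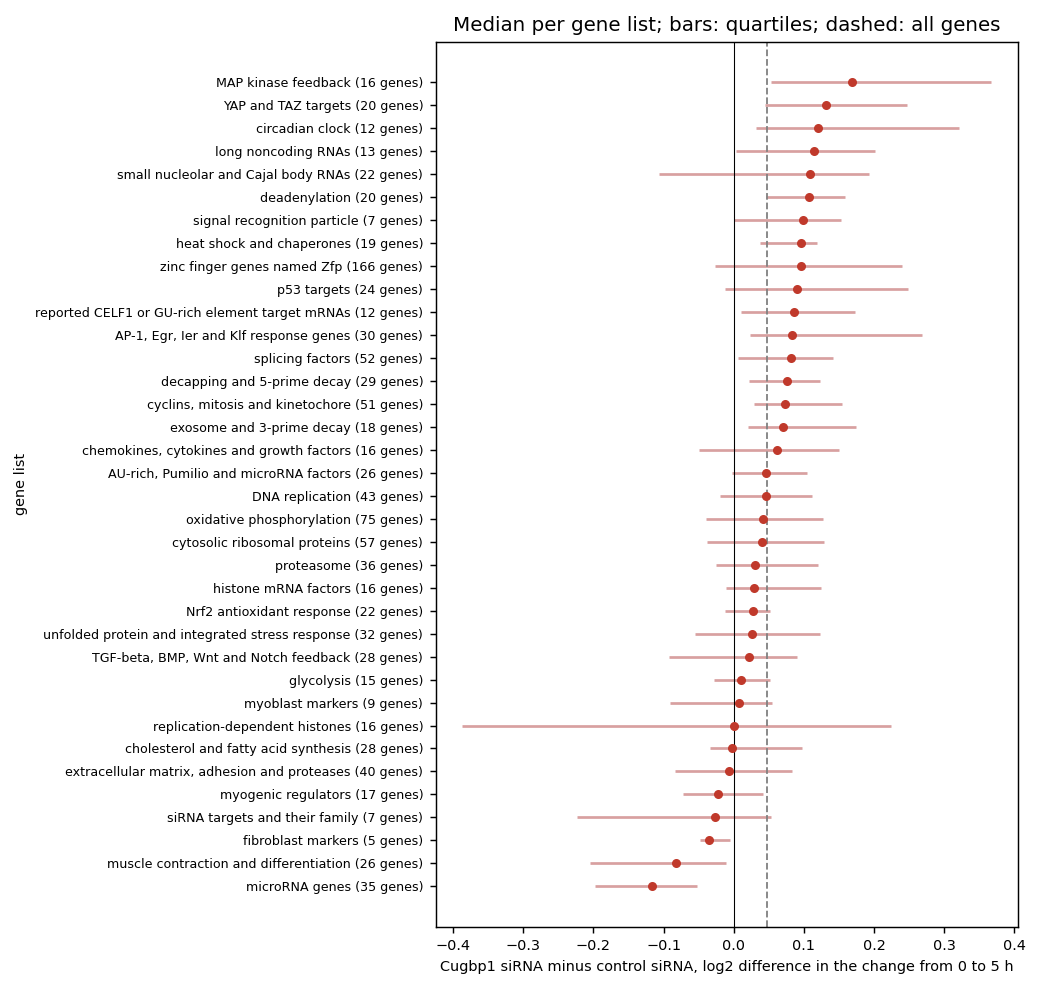
Median 5 h decay difference (log2, Cugbp1 siRNA minus control siRNA) of the gene lists with at least 5 genes that passed the filter, the number compared in brackets, with bars from the 25th to the 75th percentile of genes and a dashed line at the median of all genes (0.05). MAP kinase feedback stands at the top with 0.17 and microRNA genes at the bottom with −0.12, and the bars of most lists cross the dashed line.

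Genes of muscle contraction and differentiation were the protein-coding list with the lowest median among those drawn. C2C12 myoblasts raise these mRNAs on differentiation. Their signals before the arrest were not low throughout, with 275.5 for Tnnt3 but 2207 for Chrnd at 0 h with control siRNA. Of 39 measured genes 26 passed the filter, and 0 were higher and 6 lower at an unadjusted p under 0.05 (23.1%, beside 2.55% of all genes), with a median of −0.08. Myl1, a myosin light chain, stood at 453.5, 404 and 341 with Cugbp1 siRNA, against 301, 369 and 349 with control siRNA, so 75.2% was left at 5 h with Cugbp1 siRNA and 117% with Mbnl1 siRNA, against 116% with control siRNA. Actc1, the cardiac actin that myoblasts also make, stood at 528, 393 and 453 with Cugbp1 siRNA, against 419.7, 435 and 486 with control siRNA (−0.43 ± 0.15). Myl4 (−0.33 ± 0.10) and the troponin gene Tnnt3 (−0.29 ± 0.09) were next, followed by Actn3 (−0.21) and the acetylcholine receptor subunit Chrnd (−0.20). The median level of the 26 with Cugbp1 siRNA minus control siRNA was 0.13 at 0 h and −0.04 at 5 h, so the curves started apart and came together. The 17 myogenic regulators had 0 higher and 0 lower and a median of −0.02. Myog, with a mean log2 of 6.81, was not tested.

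MicroRNA genes had the lowest median of all lists drawn. Whole-transcript arrays read a probe set of this kind on the hairpin or its longer precursor, not on the mature microRNA alone. Of 300 measured, 35 passed the filter, and 6 of them had a decay difference above 0. At an unadjusted p under 0.05, 4 were lower (11.4%, beside 2.55% of all genes) and 1 higher (2.86%, beside 8.89%), with a median of −0.12. The median was −0.14 at 2.5 h and 0.03 from 2.5 to 5 h. At 5 h a median of 109% was left with Cugbp1 siRNA and 118% with Mbnl1 siRNA, against 118% with control siRNA. The 22 small nucleolar and Cajal body RNAs also had a median of −0.15 at 2.5 h, but 0.11 at 5 h. The 1 higher is Mir100hg, a long host transcript and not a hairpin, at 265, 275 and 323 with Cugbp1 siRNA, against 364, 285 and 258 with control siRNA (0.78 ± 0.15). The 4 lower were Mir680-3 (−0.32 ± 0.11), Mir181d (−0.31 ± 0.10), Mir187 (−0.30 ± 0.11) and Mir328 (−0.30 ± 0.10). The mature sequences of 2 of them are given to show what their genes encode, from RefSeq on GRCm38.p6 and the minus strand, with the seed, bases 2 to 8, in capitals. Mir680-3 lies at chr12:35194849-35194869, and the 2 arms of Mir181d at chr8:84178759-84178781 (5p) and chr8:84178720-84178740 (3p).
mmu-miR-680: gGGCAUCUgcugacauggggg
mmu-miR-181d-5p: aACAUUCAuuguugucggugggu
mmu-miR-181d-3p: cCCACCGGgggaugaauguca
The 3 seeds differ from each other. Mir680-3 stood at 208, 238 and 247.5 with Cugbp1 siRNA, against 185, 266 and 275 with control siRNA. Mir181d stood at 225, 236.5 and 236.5 with Cugbp1 siRNA, against 193, 227.5 and 252 with control siRNA. Both signals were above their 0 h value in every later array, by less with Cugbp1 siRNA, and both were higher with Cugbp1 siRNA than with control siRNA at 0 h.

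The larger decay differences were set against levels to show in which arrays they lay. Of the 62 genes above 0.5, 58 had the same sign at 2.5 h, 49 had lost signal at 5 h with all 3 siRNAs and 30 belonged to the fast-decaying mRNAs. For 43 of them the level gap between Cugbp1 siRNA and control siRNA was wider at 5 h, and for 19 it was wider at 0 h. Their median level difference was −0.15 at 0 h and 0.42 at 5 h. Of the 62, 52 had a mean log2 under 9, where 3589 of the 9864 genes lie. Of the 16 genes below −0.5 all 16 had the same sign at 2.5 h, the gap was wider at 5 h for 10 and at 0 h for 6, and 7 had a mean log2 under 9. For 13 of the 16 the 5 h change with Mbnl1 siRNA was nearer to that with control siRNA than to that with Cugbp1 siRNA, and for 32 of the 62.

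**Figure D5:**
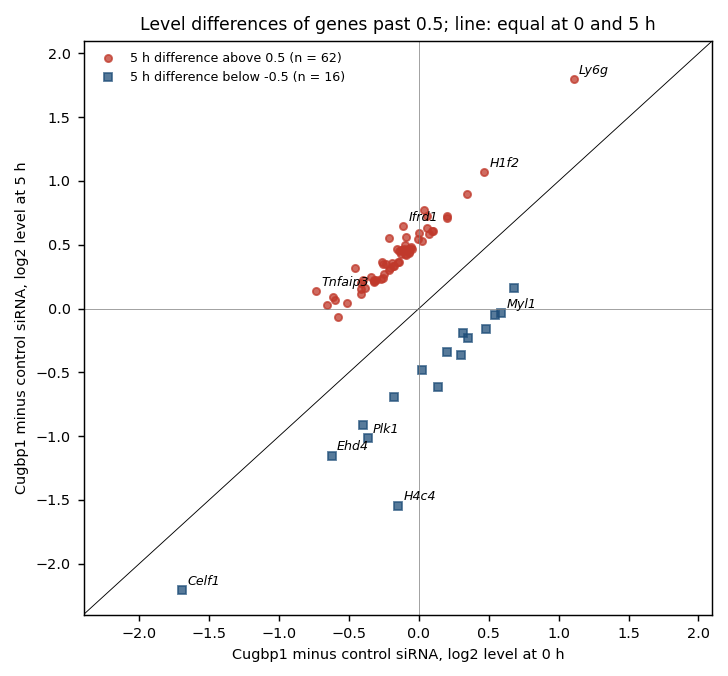
Level with Cugbp1 siRNA minus control siRNA (log2) at 0 h on the x axis and 5 h on the y axis, 1 point per gene with a 5 h decay difference above 0.5 (62 circles) or below −0.5 (16 squares); the diagonal marks equal gaps at both times and the selection keeps points at least 0.5 away from it. The circles have median gaps of −0.15 at 0 h and 0.42 at 5 h.

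Stable mRNAs of general functions moved little. The 57 cytosolic ribosomal protein genes that passed the filter had a median of 0.04, as did the 75 genes of oxidative phosphorylation. With equal medians of all genes both medians are below 0. At an unadjusted p under 0.05, 1 ribosomal protein gene was higher and 1 lower (1.75% each, beside 8.89% and 2.55% of all genes). Of the oxidative phosphorylation genes 6 were higher (8%) and 1 lower (1.33%). Actb, the cytoskeletal actin, had 103% left at 5 h with Cugbp1 siRNA and 101% with control siRNA (0.03 ± 0.08). The related RNA-binding protein genes Celf2 (−0.03 ± 0.09), Mbnl1 (0.08 ± 0.08), Mbnl2 (0.02 ± 0.10) and Mbnl3 (0.09 ± 0.09) had differences no larger than about their standard errors, while the relatives Celf4 (−0.19 ± 0.08) and Celf5 (−0.26 ± 0.14) lay lower; none of these 6 was past an unadjusted p of 0.05. Among long noncoding RNAs, Malat1, a nuclear transcript that gains relative signal under arrest, had 324% of its 0 h signal at 5 h with Cugbp1 siRNA and 174% with Mbnl1 siRNA, against 219% with control siRNA (0.57 ± 0.11), and Gas5, a host of small nucleolar RNAs whose spliced RNA is subject to nonsense-mediated decay, had 92.5% and 91.9%, against 70.7% (0.39 ± 0.12).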

How the data were processed

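Total RNA of C2C12 cells (100 ng per array, per the labels' protocols) was read on Affymetrix whole-transcript arrays. The authors normalised them by RMA with Affymetrix Expression Console, per the submitters' processing notes, which name no versions. The deposited values hold intensity; that their scale is linear follows from their range, and they were turned into log2 before any test. Of 35556 probe sets 21789 have 1 symbol, 1621 several and 12146 none in the platform annotation; 21698 of the first were matched by gene ID to RefSeq (GRCm38.p6) and 0 symbols changed. Named probe sets whose log2 averaged 7.3848 or more (intensity 167.13, their 50th percentile) were kept, the brightest per gene, which left 9864 genes, 749 of them with several probe sets. The 3974 other probe sets past the filter were tested apart.

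The 5 h decay difference was fitted by lmFit and eBayes of limma 3.58.1 (R 4.3.3) over 9 arrays with siRNA and time as factors and a line in hours per knockdown, leaving 2 residual degrees of freedom. With all 9 arrays it equals the difference of the 0 and 5 h arrays, and the 2.5 h arrays enter the residual only. Without a 0 h or 5 h array of Cugbp1 or control siRNA it is extended from a change over 2.5 h. The eBayes prior counts as 4.44 degrees of freedom. Benjamini-Hochberg adjustment ran over all 9864 genes, with a threshold of 0.05. With 1 array per siRNA and time there is no replicate check, and precision is limited by how few arrays there are. The labels and files give no batch. The script was tested on simulated data with known changes along a straight line in time. Those changes were larger than nearly all differences found here, so that test does not show how smaller ones are recovered.

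Genes named were, with no called gene, the 10 highest and 10 lowest moderated t, the 5 of each among fast-decaying mRNAs, and a set named in any case (Celf1, Celf2, Mbnl1 to Mbnl3, Slbp, Xrn1, Dcp2, Jun, Fos, Myc, Myod1, Myog, Ccnd1, Actb); Cdkn1a and Gapdh were not analysed here. The 39 gene lists, the members and the rules were chosen with earlier results of these data known. Alternatives changed the scaling, filter, probe set rule, fit, and the arrays kept, and fast-decaying mRNAs with a mean log2 of 9 or more were added after seeing the data.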

Additional observations from a re-analysis of the deposited data

Results flagged for a closer look

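Of the 9864 genes, 471 (4.77%) had both changes from 0 h, at 2.5 h and at 5 h, of one sign with Cugbp1 siRNA and of the opposite sign with control siRNA, whatever their size. Among the genes named in the text these were 11, with a 5 h decay difference on the log2 scale of −0.5130 for Celf1, −0.6261 for Myl1, −0.6398 for Tesc, −0.4317 for Actc1, −0.2079 for Actn3, −0.3316 for Myl4, −0.2979 for Mir328, 0.7815 for Mir100hg, 0.3397 for Cry1, 0.2186 for H2bc4 and 0.1907 for Xrn1. Those with a negative value lost signal with Cugbp1 siRNA and gained relative signal with control siRNA, and those with a positive value the reverse. The limma fit tested each difference and none passed after adjustment over all genes (adjusted p from 0.32 to 0.515).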

How the results depend on the processing

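No paired analysis was possible because each siRNA and time has 1 array and the labels give no replicate numbers. No gene was called in the 9 fits that leave out 1 array (0 in each) or in 6 of the 8 other alternatives; 3 genes were called with the filter at the 75th percentile and 4 with an intensity trend and robust prior. The 877 genes higher at an unadjusted p under 0.05 became 399 with equal medians of all genes, 477 with the stricter filter and 444 with a step after 0 h in place of a line, and ranged from 328 to 1180 with 1 array left out. The 252 lower became 552 with equal medians, 746 with no filter and 115 with the stricter filter, and ranged from 109 to 347. The median of fast-decaying mRNAs was 0.073 with equal medians and 0.068 to 0.208 with 1 array left out; its excess over all genes was then 0.019 to 0.165. Without any 1 Mbnl1 siRNA array the counts equalled those of the 6 arrays alone (1180 and 347).

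Of 38 named genes 27 kept their sign in each of the 17 alternatives in which they were tested. Some were too dim for the stricter filter. Several alternatives could not turn a sign. Changing the filter or the prior, or leaving out a 2.5 h or Mbnl1 siRNA array, leaves the decay difference of a gene unchanged. Many of the 38 were also picked for an extreme moderated t in these data. Of the other 11, with equal medians Mbnl2 was −0.042, Myod1 −0.056 and Actb −0.036; Celf2 was 0.128 as a mean over probe sets; Ccnd1 was 0.003 with equal ribosomal protein medians and 0.001 with a step, where Myod1 was −0.021. With 1 array left out, Celf2 ranged from −0.144 to 0.089, Mbnl2 from −0.087 to 0.132, Mbnl3 from −0.043 to 0.227, Slbp from −0.191 to 0.039, Xrn1 from −0.041 to 0.422, Dcp2 from −0.562 to 0.379, Jun from −0.289 to 0.559, Myc from −0.084 to 0.616, Myod1 from −0.102 to 0.117 and Ccnd1 from −0.06 to 0.044. The causes were not tested. Dim signal and 1 array per siRNA and time limit what can be told apart.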

Other observations

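Among the 3974 probe sets past the filter that have several gene symbols or none, 0 were called in the limma fit and 284 had an unadjusted p under 0.05; the smallest adjusted p was 0.419. Hmox1, the haem-degrading enzyme of the Nrf2 antioxidant response, had 113% of its 0 h signal left at 5 h with Cugbp1 siRNA and 80% with Mbnl1 siRNA, against 84.4% with control siRNA. Its 5 h decay difference was 0.42 ± 0.09 (SE), on a level that was 1.07 higher on the log2 scale at 0 h and 1.49 higher at 5 h. Of the 22 genes of that response 3 were higher and 0 lower at an unadjusted p under 0.05 (13.6%, beside 8.89% of all genes), with a median of 0.03. Of 32 genes of the unfolded protein and integrated stress responses 2 were higher (6.25%) and 1 lower (3.12%), beside 8.89% and 2.55% of all genes. The transcription factor Atf4 stood at 0.30 ± 0.08 and its target Trib3 at −0.27 ± 0.11. Of 43 genes of DNA replication 3 were higher (6.98%, beside 8.89% of all genes) and 0 lower, with a median of 0.05.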
